A study of Mus musculus with 10 samples.

Results

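Wfs1, Cpne7, Fibcd1, Meis2, Zbtb20 and Spink8 are 6 genes used as markers of hippocampal pyramidal or granule neurons, and their RNA was followed here in a part of the brain outside the hippocampus, the somatosensory cortex. They were taken by name from 2 tables, of 23283 named rows at 2.5 months and 54427 at 3 months, and all 6 were found in both. Wfs1 and Cpne7 were chosen by their FPKM, which was higher in the 2.5-month knockout than in its controls, so for that contrast the values of all 6 genes are given as a description, without a test. Of the 6, 4 had a row of their own in the 2.5-month table. Zbtb20 shared a row with Mir568, the gene of a microRNA, and Spink8 shared one with its neighbour Nme6.

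The mice carried a conditional deletion (cKO) of Nsd1, which encodes a methyltransferase of lysine 36 of histone H3, and by its title the study asks whether this methylation is needed to establish and to maintain the identity of neurons. The Nex model (Nsd1Nex-cKO, Cre from the Neurod6 locus, which acts in excitatory neurons of the forebrain soon after they leave the cell cycle) was sampled at 2.5 months, with 3 cKO libraries (Nex_cKO) and 3 control libraries (Nex_Ctrl). Of these controls, replicates 1 and 2 were labelled Nsd1fl/+ and replicate 3 Nsd1fl/fl. The Camk2a model (Nsd1Camk2a-cKO, a driver that acts in more mature forebrain excitatory neurons) was sampled at 3 months, with 2 cKO libraries (Camk2a_cKO) and 2 Nsd1fl/+ controls (Camk2a_Ctrl). Presence of Cre in the controls is not stated, and neither are litter, batch or separate mice, so p-values measure the spread between these libraries only. Driver, age and table differ together between the models, and so does the Y-linked RNA given below, except in Nex_cKO replicate 3. Both drivers act mainly in excitatory neurons, so most other cells of the tissue keep Nsd1, and in such bulk RNA fewer cells of a type and less RNA per cell cannot be told apart.

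The hippocampus and the neocortex arise side by side in the dorsal telencephalon, and their excitatory neurons share much of their gene expression. Fields CA1, CA2 and CA3 and the dentate gyrus are told apart by small sets of genes. Some of these also mark layers of the neocortex: Wfs1 is strong in CA1 and is also made by superficial neocortical neurons, and Meis2 is best known from striatal neurons and their precursors.

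Levels are FPKM, fragments per kilobase of transcript corrected for library size, as deposited. A log2 change is the cKO mean minus the control mean of log2(FPKM + 1), which understates the change of genes of low FPKM. A gene is called higher or lower, and said to have risen or fallen, where the adjusted p of limma, fitted over all genes of one table, is under 0.05. In the Nex model 560 of 12528 genes tested were higher (4.47%) and 509 lower (4.06%), or 8.53% in either direction, and with libraries rescaled by the median ratio 594 were higher and 356 lower. In the Camk2a model 0 of 12919 were called (0%) by limma, with 899 at an unadjusted p under 0.05 and 1 called by limma's voom on recovered reads. Recovered reads numbered 16901717 to 20074933 per Camk2a library, and the depth of the Nex libraries is unknown. Nex_cKO replicate 3 stood apart, with 41.6% of its FPKM in rows without a gene name against 2.33% to 19.4% in the other Nex libraries, and with Ddx3y, a Y-linked gene, at 16.2 FPKM against 0 in those. The Ddx3y level was 11 to 12.4 FPKM in all 4 Camk2a libraries. As a check of the labels, the row joining Nsd1 with Prelid1 lay at 125.1 to 141.4 FPKM in Nex_Ctrl and 91.0 to 118.1 in Nex_cKO (log2 change -0.34, limma adjusted p = 0.0863), a row that cannot show Nsd1 alone. Nsd1 at 3 months lay at 5.61 and 8.87 FPKM in controls and 4.31 and 4.99 in cKO libraries (log2 change -0.52, adjusted p = 0.685). Neurod6, the gene whose locus carries the Nex driver, fell in the Nex model from 29.4 to 34.0 FPKM to 14.6 to 22.2 (log2 change -0.80, adjusted p = 0.00718). The Camk2a gene itself was at 699.6 to 773.4 FPKM in Nex_Ctrl and 661.5 to 662.5 in Nex_cKO, and was not called in either model (adjusted p 0.459 and 0.923).

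The tissue label was checked first. The neocortical excitatory genes Slc17a7 and Tbr1 were present in all 10 libraries, Slc17a7 (the vesicular glutamate transporter of cortical neurons) at 464.2 to 588.7 FPKM in the Nex libraries and 248.2 to 296.8 in the Camk2a libraries. Excitatory neurons of both regions share much of their gene expression, so this presence does not tell neocortex from hippocampus. Tbr1 itself fell in the Nex model, from 63.6 to 69.2 FPKM to 46.4 to 48.9 (log2 change -0.46, limma, adjusted p = 0.00333). It kept the call in all 15 alternatives. Of markers of the dentate gyrus and CA3, 3 were at or near 0. Dsp, a desmosome gene of dentate granule cells, was at most 0.0374 FPKM in every library. C1ql2, a secreted protein of granule cells, was at most 0.463 FPKM in every library. Iyd, a CA3 marker, lay between 0.0427 and 0.172 FPKM in Nex_Ctrl and at 0 in all 3 Nex_cKO libraries. Other markers of these fields were well above 0 in the Nex libraries, such as Plk5 (11.4 to 17.9 FPKM) and Stxbp6 (17.0 to 21.7) of the dentate list and Bok (22.8 to 42.7) and Grik4 (5.33 to 6.57) of the CA3 list, so the lists as a whole do not show whether RNA of these fields was present.

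Wfs1 encodes wolframin, a glycoprotein of the endoplasmic reticulum membrane that is lost in Wolfram syndrome. The gene (ENSMUSG00000039474) lies on chromosome 5 from 36966104 to 36989205, minus strand (GRCm38). In the Nex controls its level was 17.7, 19.6 and 19.9 FPKM, and in the Nex_cKO libraries 45.5, 62.3 and 51.1 FPKM. Every cKO library lay above every control. The means were 19.1 ± 1.18 FPKM (SD, n = 3) and 53.0 ± 8.57 (SD, n = 3), a ratio of 2.78 and a log2 change of 1.42, which was 1.44 without Nex_cKO replicate 3. The 3-month libraries, which had no part in the choice of the gene, gave 22.6 and 25.5 FPKM in controls and 24.7 and 38.6 in cKO libraries (1471, 1907, 1666 and 2459 recovered reads). Here the groups overlapped, with Camk2a_cKO replicate 2 alone above both controls. The log2 change was 0.35 ± 0.20 (SE, n = 2 against 2, limma, adjusted p = 0.808), with a 95% interval from -0.14 to 0.85. Without Camk2a_cKO replicate 2 it was 0.04, and without Camk2a_cKO replicate 1 it was 0.67, so 1 library decided its size. That library was also the lowest in Neurod6, at 13.9 FPKM against 23.95 to 24.4 in the other 3. The part of this in the Wfs1 value was not tested.

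Cpne7 encodes a copine, a cytosolic protein that binds phospholipid in response to calcium. The gene (ENSMUSG00000034796) lies on chromosome 8 from 123117374 to 123135182, plus strand. Its level was 4.55, 4.16 and 5.59 FPKM in Nex_Ctrl and 11.9, 14.3 and 13.0 in Nex_cKO. The groups were well apart, and the highest control was below the lowest cKO library by more than the spread within either group. The means were 4.77 ± 0.744 FPKM and 13.1 ± 1.18 (SD, n = 3 each), a ratio of 2.74 and a log2 change of 1.29, with the same value without Nex_cKO replicate 3. At 3 months Cpne7 lay at 1.67 and 1.33 FPKM in controls and 1.62 and 1.93 in cKO libraries (151, 139, 152 and 171 reads), and the groups overlapped. The log2 change was 0.15 ± 0.15 (SE, n = 2 against 2, limma, adjusted p = 0.899; 95% interval -0.22 to 0.52). Gm20388, annotated as protein coding on the same strand, and Mir7080 overlap Cpne7, so how their reads were shared out is uncertain. In the 3-month table Gm20388 was listed at 0 in all 4 libraries.

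Fibcd1 encodes a transmembrane receptor that binds acetylated groups such as those of chitin, and its RNA marks CA1. The gene (ENSMUSG00000026841) lies on chromosome 2 from 31813290 to 31846005, minus strand. In the Nex controls its level was 2.44, 2.02 and 2.19 FPKM, against 4.15, 4.55 and 3.89 FPKM in the cKO libraries. Each cKO library was above each control. The means were 2.22 ± 0.209 and 4.20 ± 0.335 FPKM (SD, n = 3 each), a ratio of 1.89 and a log2 change of 0.69, or 0.73 without Nex_cKO replicate 3. At 3 months the order was the opposite, with 2.36 and 2.86 FPKM in controls and 1.81 and 1.70 in cKO libraries (193, 269, 153 and 136 reads), and both cKO libraries below both controls. The log2 change was -0.39 ± 0.14 (SE, n = 2 against 2), with an unadjusted p of 0.0295 in limma and an adjusted p of 0.650, so Fibcd1 was not called, and its 95% interval ran from -0.72 to -0.05.

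Spink8 encodes a Kazal-type serine protease inhibitor whose RNA is a marker of CA1. The gene (ENSMUSG00000050074) lies on chromosome 9 from 109812280 to 109826633, plus strand, 6.12 kb from Nme6, a nucleoside diphosphate kinase gene with which it shares its row at 2.5 months. That joined row was at 3.40, 1.96 and 1.88 FPKM in Nex_Ctrl and 2.56, 4.15 and 1.53 in Nex_cKO. The groups overlapped throughout, and leaving out 1 library moved the log2 change of 0.10 to between -0.16 and 0.36. The 3-month table holds the 2 genes apart. Spink8 there had 9 and 9 reads in controls and 7 and 1 in cKO libraries, levels of 0.637, 0.555, 0.479 and 0.0724 FPKM that were below the minimum of 1 FPKM for the test. Without that minimum its log2 change was -0.34 ± 0.18 (SE, n = 2 against 2, limma, adjusted p = 0.87). Nme6 was at 0.946 and 0.896 FPKM in controls and 1.16 and 0.741 in cKO libraries, above Spink8 in all 4. The joined value of 2.5 months can therefore not be read as Spink8.

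The other 2 genes encode transcription factors. Meis2 encodes a homeodomain protein of the TALE class, which binds DNA together with partner homeodomain proteins. It (ENSMUSG00000027210) lies on chromosome 2 from 115863064 to 116065839, minus strand. Unlike that of Wfs1, Cpne7 and Fibcd1, its level was lower in the Nex knockout, at 7.17, 7.78 and 7.55 FPKM against 12.8, 14.1 and 14.2 in controls. All 3 cKO libraries lay below all controls, and values within a group were close. The means were 13.7 ± 0.746 FPKM in Nex_Ctrl and 7.5 ± 0.31 in Nex_cKO (SD, n = 3 each), a ratio of control to cKO of 1.83 and a log2 change of -0.79, the same to 2 decimals without Nex_cKO replicate 3. At 3 months both cKO libraries, at 4.80 and 5.46 FPKM, lay above the controls at 4.50 and 4.76 (1029, 1106, 933 and 1133 reads). That difference was small, with a log2 change of 0.12 ± 0.11 (SE, n = 2 against 2, limma, adjusted p = 0.883; 95% interval -0.15 to 0.39).

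Zbtb20 encodes a zinc finger repressor needed for the CA1 field and also made by astrocytes. It (ENSMUSG00000022708) spans chromosome 16 from 42875881 to 43642602, plus strand, and holds Mir568 and the antisense genes AC161607.1, Gm15713 and Gm9968. Strand use in counting is not given in the sources used here, so reads of these cannot be told apart from those of Zbtb20. BC002163, a processed pseudogene on the same strand, also overlaps Zbtb20, so how their reads were shared out is uncertain. At 3 months BC002163 was listed at 3.64 and 4.60 FPKM in controls and 2.82 and 4.47 in cKO libraries, above Zbtb20 in each. In the Nex libraries it was at 0.456 to 1.39 FPKM. The joined row was at 1.80, 1.84 and 1.69 FPKM in Nex_Ctrl and 1.88, 1.89 and 3.11 in Nex_cKO. The cKO libraries were above the controls only narrowly, except Nex_cKO replicate 3, the library that stood apart. The log2 change was 0.23, and 0.06 without that library. After quantile normalization the groups overlapped. At 3 months Zbtb20 lay at 2.45 and 2.17 FPKM in controls and 2.01 and 2.37 in cKO libraries, and the groups overlapped (log2 change -0.05 ± 0.14, SE, n = 2 against 2, limma, adjusted p = 0.965). The sign of that small value turned when Camk2a_Ctrl replicate 1 (0.01) or Camk2a_cKO replicate 1 (0.03) was left out. Mir568 was listed at 0 in all 4 of those libraries.

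**Figure D1:**
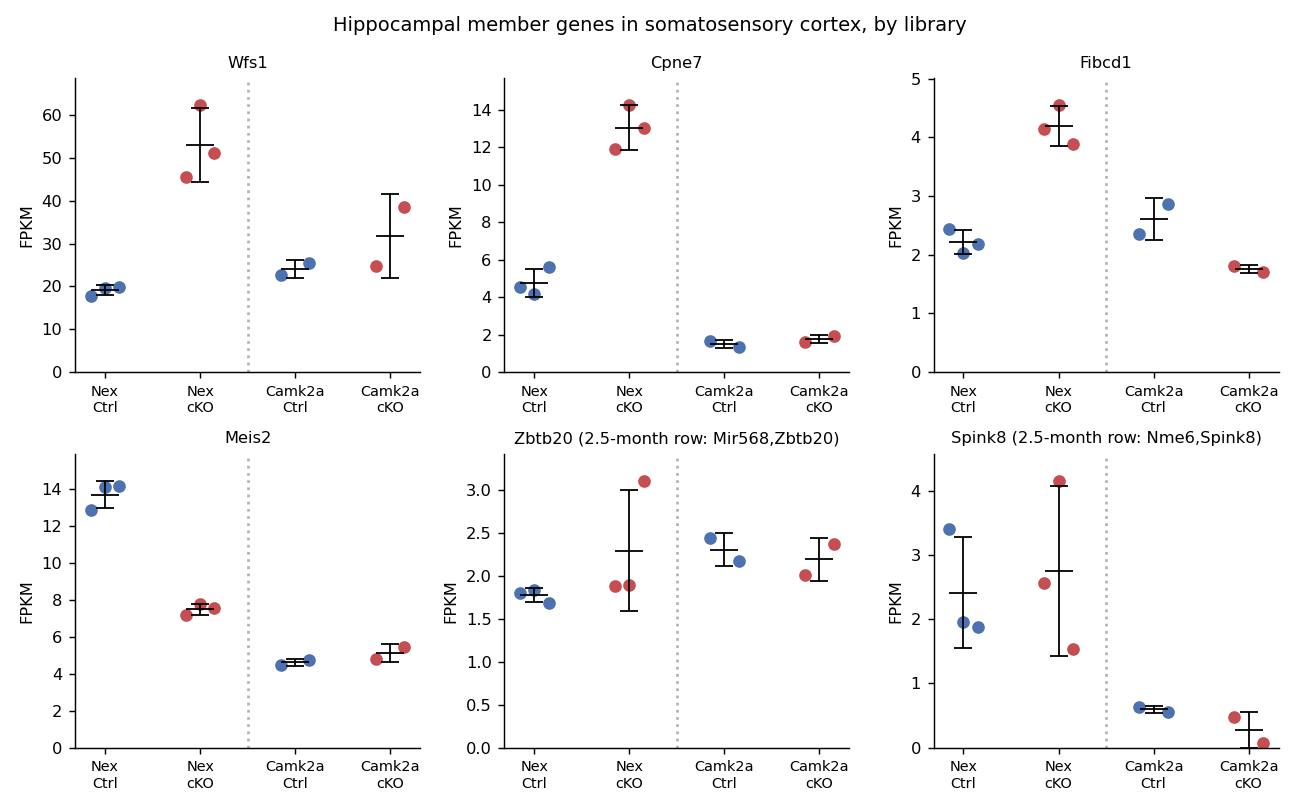
FPKM of the 6 genes in each library, with Nex libraries (2.5 months, 3 against 3) left and Camk2a libraries (3 months, 2 against 2) right of the dotted line; points are libraries, and bars are the mean ± SD. Wfs1, Cpne7 and Fibcd1 lie higher and Meis2 lower in every Nex_cKO library, while at 3 months the groups of Wfs1, Cpne7 and Zbtb20 overlap.

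Set side by side, 5 of the 6 rows had Nex groups that did not overlap, with 4 higher and 1 lower in the cKO libraries, and the sixth, Nme6 with Spink8, overlapped. Over all genes tested, every cKO library was above every control for 11.5% and below for 18.9%. Since the choice of the genes used this contrast, the count is a description. In the Camk2a model, 5 of the 6 could be tested and 0 of 5 were called by limma, beside 0 of all 12919 genes tested. Fibcd1 was the only one of the 5 at an unadjusted p under 0.05. There 2 of the 5 had groups that did not overlap, Meis2 higher and Fibcd1 lower, beside 16.2% and 21.1% of all genes tested. The order of levels in the Nex controls was Wfs1, Meis2, Cpne7, then the Nme6 and Spink8 row, Fibcd1, and the Zbtb20 row. Of neighbours in that order, Fibcd1 (2.02 to 2.44 FPKM) lay within the range of the joined Spink8 row (1.88 to 3.40), and the others did not overlap. In the Nex_cKO libraries Cpne7 (11.9 to 14.3 FPKM) lay above Meis2 (7.17 to 7.78), the reverse of the controls. At 3 months the order in the controls was Wfs1, Meis2, Fibcd1, Zbtb20, Cpne7 and Spink8. There Fibcd1 (2.36 and 2.86) and Zbtb20 (2.17 and 2.45) overlapped, and the other neighbours did not.

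The start regions of these genes were compared by their CpG sites, the sequence at which DNA is methylated in mammals. RefSeq's table of promoters (GRCm38.p6) held 4 of the 6 genes, and Cpne7 and Spink8 were the 2 not matched. In the 250 bases before the start, Fibcd1 had 34 CpG, more than 96.5% of the 32851 promoters of the table, and Wfs1 had 23, more than 86.7%. Meis2 had 7 CpG, more than 53.7%, and Zbtb20 had 3, more than 29.0%, against a median of 6. The windows are unlike, because those of Fibcd1 and Zbtb20 lie outside annotated exons, while only 27 of the 250 bases of Wfs1 and 80 of those of Meis2 do. The windows of Wfs1 (for the most part) and Meis2 lie within the annotated gene. The richest and the poorest of the 4 are shown, with each CpG in capitals. That of Fibcd1 ends at the gene's own start (chr2:31846006-31846255, minus strand), and that of Zbtb20 belongs to a start inside the long gene (chr16:43247034-43247283, plus strand).
Fibcd1: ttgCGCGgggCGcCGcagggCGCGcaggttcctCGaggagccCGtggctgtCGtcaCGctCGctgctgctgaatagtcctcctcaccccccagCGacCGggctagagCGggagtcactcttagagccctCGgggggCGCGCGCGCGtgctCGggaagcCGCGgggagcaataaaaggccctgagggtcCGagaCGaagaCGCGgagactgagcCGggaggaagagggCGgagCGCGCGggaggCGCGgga
Zbtb20: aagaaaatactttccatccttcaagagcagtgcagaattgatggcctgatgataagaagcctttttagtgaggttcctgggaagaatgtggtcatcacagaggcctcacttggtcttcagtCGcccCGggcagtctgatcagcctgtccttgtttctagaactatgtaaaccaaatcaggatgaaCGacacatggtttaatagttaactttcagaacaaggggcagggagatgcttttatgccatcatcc
In the Fibcd1 sequence the capitals run through most of the stretch, and in the Zbtb20 sequence they stand apart. The CpG counts had no common order with the Nex values, since Fibcd1 and Wfs1, with the most, and Zbtb20, with the fewest, all lay higher in the Nex_cKO libraries and Meis2 lay lower. The place of Zbtb20 is uncertain, because its row is joined with Mir568 and its log2 change was 0.06 without Nex_cKO replicate 3. With 4 genes this is a description, and DNA methylation is not part of these data.

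No tested gene among the nearest protein-coding genes on each side was called. Ppp2r2c, a phosphatase subunit gene 11026 bases from Wfs1, lay at 189.5 to 190.9 FPKM in Nex_Ctrl and 193.8 to 223.6 in Nex_cKO (log2 change 0.13 ± 0.08, SE, n = 3 against 3, limma, adjusted p = 0.368). Jakmip1, 39.1 kb from Wfs1 on the other side, overlapped between the groups (adjusted p = 0.605). Rpl13, a ribosomal protein gene 12.1 kb from Cpne7, overlapped as well (adjusted p = 0.418). Sult5a1, 5.01 kb from Cpne7 on the far side, was below the minimum for the test, at 0 to 0.0599 FPKM in Nex_Ctrl and 0.113 to 0.292 in Nex_cKO. Lamc3, a laminin subunit gene 41.3 kb from Fibcd1, lay at 0.706 to 0.899 FPKM in Nex_Ctrl and 1.006 to 1.54 in Nex_cKO, apart in every library but not past the threshold (log2 change 0.31, adjusted p = 0.193). Qrfp, on the other side of Fibcd1, was at most 0.23 FPKM in every library. BC052040, 84.3 kb from Meis2, overlapped in the Nex model (adjusted p = 0.959), and Gap43, a growth cone protein gene 535.0 kb from Zbtb20, was lower in every Nex_cKO library without a call (log2 change -0.17, adjusted p = 0.205). At 3 months Gap43 was also lower in both cKO libraries, at 53.8 and 59.0 FPKM against 76.4 and 74.5 in controls (log2 change -0.42 ± 0.09, SE, n = 2 against 2, limma, unadjusted p = 0.00402, adjusted p = 0.474).

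Other markers of the hippocampal fields moved in both directions in the Nex model. Of 29 genes in lists for CA1, CA2, CA3 and the dentate gyrus, 21 were tested in the Nex model, 1 rose and 4 fell, or 23.8% called beside 8.53% of all genes. Their median log2 change was 0.05, against -0.04 over all genes tested. In the Camk2a model 0 of 18 tested were called by limma, with 2 at an unadjusted p under 0.05, and voom called 0.

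Among CA1 markers other than the genes already described, 1 of 4 was called and fell, and the median log2 change was 0.19. Mpped1, a metallophosphoesterase gene of CA1 and neocortex, went from 75.4, 77.5 and 81.0 FPKM to 65.0, 65.4 and 54.4 (log2 change -0.34 ± 0.09, SE, n = 3 against 3, limma, adjusted p = 0.0467). Groups were apart, but the call was lost in 10 of 15 alternatives, among them each left-out control and Nex_cKO replicate 1, with adjusted p up to 0.176. The summed FPKM of the list was 119.4 to 125.4 in Nex_Ctrl and 110.7 to 117.3 in Nex_cKO. Mpped1 makes up most of that sum. Without it the sum of the other 3, Nov, Pou3f1 and Man1a, was 44.0 to 47.3 FPKM in Nex_Ctrl and 45.2 to 60.7 in Nex_cKO, and their log2 changes were 0.21, 0.18 and 0.21, not called.

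Of the CA2 markers, 5 of 7 were tested, 1 rose and 1 fell, and the median log2 change was 0.17. Rgs14, a regulator of G protein signalling that marks CA2 neurons, rose from 15.3, 16.1 and 14.2 FPKM to 22.6, 22.9 and 21.3 (log2 change 0.52 ± 0.07, SE, n = 3 against 3, limma, adjusted p = 0.00291), and it was called in all 15 alternatives. At 3 months Rgs14 lay at 8.13 and 8.603 FPKM in controls and 7.39 and 8.94 in cKO libraries (adjusted p = 0.976). Pcp4, a calmodulin-binding peptide of CA2 and of deep neocortical layers, fell from 565.6, 551.8 and 585.8 FPKM to 267.9, 331.7 and 147.8 (log2 change -1.26 ± 0.25, adjusted p = 0.0154). The lowest value was that of Nex_cKO replicate 3, without which the adjusted p was 0.000666, and leaving out any 1 control ended the call (adjusted p 0.0528 to 0.0641). Since Pcp4 makes up most of it, the summed FPKM of the list was 574.0 to 606.0 in Nex_Ctrl and 175.5 to 361.6 in Nex_cKO, and without it 20.2 to 22.2 and 27.7 to 29.9.

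Of the CA3 markers, 6 of 8 were tested, 0 rose and 1 fell, with a median log2 change of -0.10. Cdh24, a cadherin gene, went from 8.32, 6.91 and 7.49 FPKM to 4.92, 6.22 and 4.42 (log2 change -0.48 ± 0.12, SE, n = 3 against 3, limma, adjusted p = 0.0475). It was not called in 11 of 15 alternatives, including without Nex_cKO replicate 3 (adjusted p = 0.082) and without each other library but Nex_cKO replicate 2. Of the dentate granule cell markers, 6 of 10 were tested, 0 rose and 1 fell. Prox1, the homeodomain factor that fixes granule cell identity, overlapped between the groups, at 1.22 to 1.53 FPKM in Nex_Ctrl and 1.32 to 1.68 in Nex_cKO (adjusted p = 0.824).

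**Figure D2:**
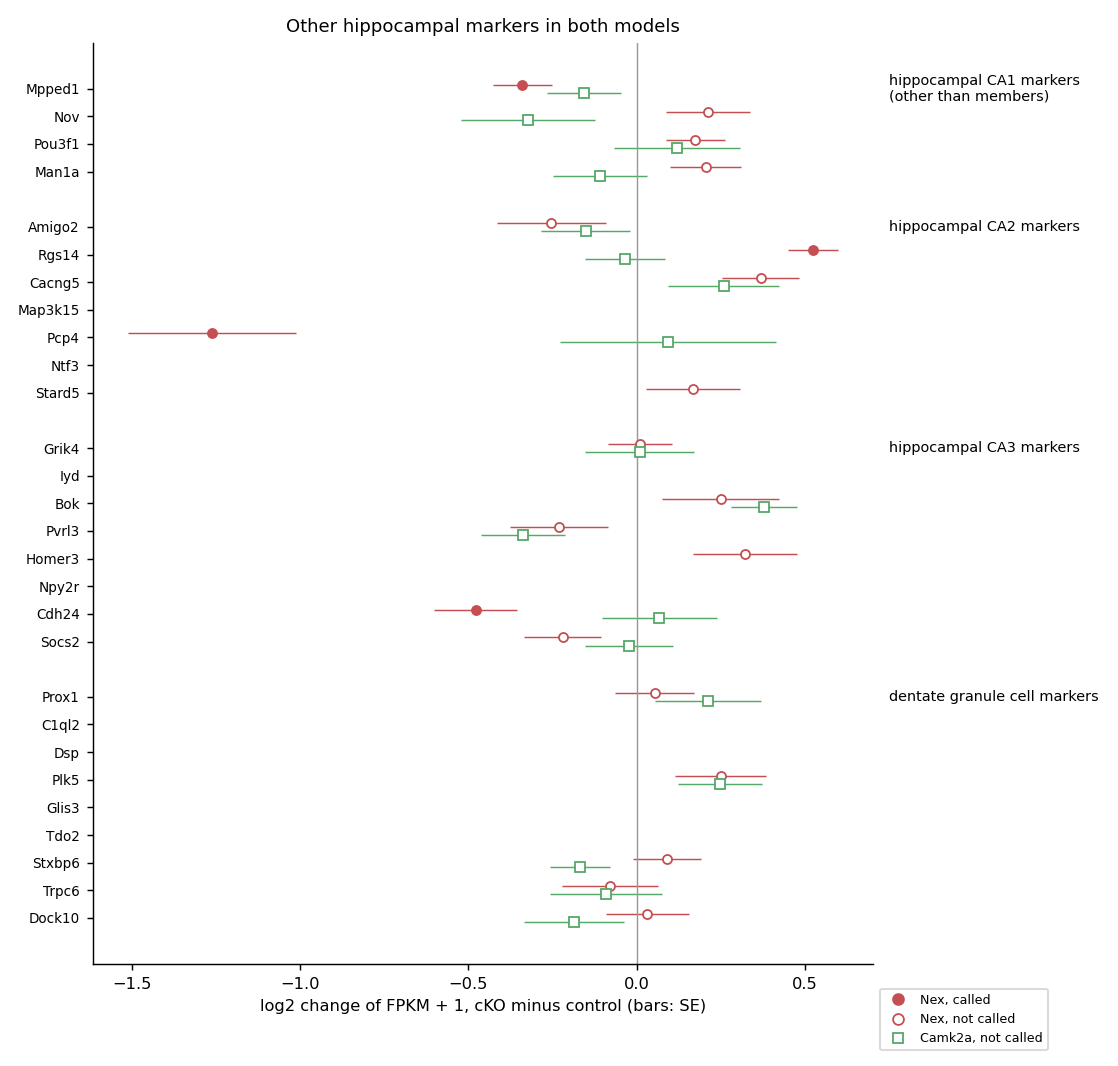
Log2 change of FPKM + 1 (cKO minus control, bars SE) of other hippocampal markers by field, for the Nex model (circles, filled where limma called them) and the Camk2a model (squares); genes below the FPKM minimum have no symbol. Rgs14 stands alone to the right as called, and Mpped1, Pcp4 and Cdh24 are called to the left.

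Cell types in which these genes are also made were followed by their own markers. Of 10 markers of upper layer neurons, where Wfs1 is made in the neocortex, 0 rose and 1 fell, with a median log2 change of -0.17. Lamp5, a lysosome-associated membrane protein of superficial neurons, fell from 168.6 to 184.5 FPKM to 96.9 to 116.3 (log2 change -0.71, limma, adjusted p = 0.00153). The summed FPKM of that list was 368.8 to 393.3 in Nex_Ctrl and 289.9 to 307.2 in Nex_cKO, and without Lamp5 it overlapped, at 197.0 to 211.0 and 176.0 to 210.0. At 3 months it was 235.7 to 240.8 in controls and 239.6 to 249.2 in cKO libraries. Among 10 neocortical excitatory neuron markers, 1 rose and 6 fell (70.0% called beside 8.53% of all genes). Foxp2, a factor of layer 6, fell from 2.87 to 3.62 FPKM to 1.53 to 1.68 (log2 change -0.73, adjusted p = 0.00408). Rorb, a factor of layer 4, fell from 8.78 to 9.28 FPKM to 5.04 to 6.62 (log2 change -0.56, adjusted p = 0.0103), with an adjusted p of 0.0507 without Nex_Ctrl replicate 3. Fezf2, which specifies layer 5 output neurons, was lower with a log2 change of -0.49 (adjusted p = 0.0462), a call lost in 10 of 15 alternatives, among them each left-out control (adjusted p up to 0.159). Neurod2, a bHLH factor of excitatory neurons, rose from 45.1 to 50.4 FPKM to 54.7 to 64.7 (log2 change 0.35, adjusted p = 0.0354), and was lost without any library other than Nex_cKO replicate 3 (adjusted p up to 0.144).

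Striatal neurons are rich in Meis2. Of their 12 markers, 9 were tested, 0 rose and 1 fell, or 11.1% called beside 8.53% of all genes. The median log2 change was -0.09 against -0.04 over all genes tested, and 7 of the 9 had a negative sign. The summed FPKM overlapped, at 137.4 to 141.3 in Nex_Ctrl and 116.6 to 161.3 in Nex_cKO. The largest part of that sum was Ppp1r1b, at 67.6 to 69.5 FPKM in Nex_Ctrl and 68.1 to 105.3 in Nex_cKO. Drd1, a dopamine receptor gene that defines one class of these neurons, overlapped at 2.11 to 2.48 and 1.62 to 2.37 FPKM (adjusted p = 0.715). Isl1 was listed at 0 in all 6 Nex libraries, and Drd2 and Gpr6 were below the minimum for the test. Astrocytes make Zbtb20. Of 12 astrocyte markers 1 rose and 0 fell, or 8.33% called beside 8.53% of all genes. Their summed FPKM was 1114 to 1188 in Nex_Ctrl and 1208 to 1230 in Nex_cKO. The largest parts of that sum were Slc1a2 (limma, adjusted p = 0.353) and the row joining Aldoc with Pigs (0.56). Both overlapped between the groups and were not called. Gfap, the intermediate filament of reactive astrocytes, rose from 21.0 to 31.6 FPKM to 42.4 to 48.9 (log2 change 0.82, adjusted p = 0.00605). The part of any of these lists in the values of the 6 genes was not tested.

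The copines other than Cpne7 were taken as its family. All 8 were tested in the Nex model, 1 rose and 1 fell (25.0% called beside 8.53% of all genes). Their median log2 change was -0.04. Cpne4 rose from 8.64, 7.28 and 8.14 FPKM to 13.2, 13.2 and 18.2 (log2 change 0.80 ± 0.13, SE, n = 3 against 3, limma, adjusted p = 0.00535), the highest value being that of Nex_cKO replicate 3, and all 15 alternatives kept the call. At 3 months Cpne4 was at 9.69 and 9.17 FPKM in controls and 6.36 and 8.05 in cKO libraries, both cKO libraries lower (log2 change -0.35, adjusted p = 0.669). Cpne8 fell from 7.16, 8.51 and 7.99 FPKM to 6.06, 4.07 and 4.59 in the Nex model (log2 change -0.60 ± 0.13, adjusted p = 0.0248). Its call ended without Nex_Ctrl replicate 1 (0.0541), 2 (0.0986) or 3 (0.0912). In the Camk2a model it was also lower in both cKO libraries, at 5.18 and 5.10 against 2.48 and 3.999 FPKM, without a call (log2 change -0.56, adjusted p = 0.604). Cpne6, the copine best known from hippocampal neurons, overlapped in the Nex model at 43.4 to 53.6 and 52.6 to 66.5 FPKM (log2 change 0.25, adjusted p = 0.212).

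For Meis2 the TALE homeodomain factors were counted. Of 15 other members 9 were tested in the Nex model and 0 were called by limma, beside 8.53% of all genes. Only Pbx2 had an unadjusted p under 0.05. Pbx2 shares its 2.5-month row with Gpsm3. The row of highest level joins Tgif2 with 1110008F13Rik and overlapped between the groups (adjusted p = 0.301). Tgif2 alone was at most 0.155 FPKM at 3 months, so that row cannot be read as Tgif2. Meis1, the closest relative of Meis2, was below the minimum for the test. Its level was 0.427 to 0.553 FPKM in Nex_Ctrl and 0.755 to 0.899 in Nex_cKO, higher in every cKO library, where Meis2 was lower. At 3 months Meis1 was at most 0.164 FPKM.

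For Wfs1 its partners and genes of endoplasmic reticulum stress were counted, since wolframin acts on the ATF6 branch of that response. Of 18, all tested in the Nex model, 0 rose and 2 fell, or 11.1% called beside 8.53% of all genes. The median log2 change was -0.24 against -0.04 over all genes, and 17 of the 18 had a negative sign. Atf6, the stress sensor and transcription factor, fell from 12.5, 13.4 and 13.3 FPKM to 7.87, 8.72 and 8.99 (log2 change -0.56 ± 0.08, SE, n = 3 against 3, limma, adjusted p = 0.00316), and kept the call in all 15 alternatives. Itpr1, a calcium release channel of the same membrane, fell from 72.4, 83.7 and 75.4 FPKM to 54.5, 51.6 and 61.4 (log2 change -0.46 ± 0.09, adjusted p = 0.0139). That call ended without Nex_Ctrl replicate 2 (0.0636) or 3 (0.0534), without Nex_cKO replicate 1 (0.0603) and after quantile normalization (0.101). The row joining Cisd2, the second gene of Wolfram syndrome, with 4930539J05Rik was at 18.6 to 20.3 FPKM in Nex_Ctrl and 17.8 to 18.5 in Nex_cKO (log2 change -0.10, adjusted p = 0.438). Hspa5, the chaperone BiP, was at 133.4, 80.7 and 97.2 FPKM in controls and 78.2, 67.8 and 62.0 in cKO libraries (log2 change -0.55, adjusted p = 0.0843), and Nex_Ctrl replicate 1 was far above the others. That library was also the highest control for Xbp1 (54.6 FPKM against 34.45 and 40.6), Sdf2l1 (21.4 against 9.01 and 11.3) and the joined row of Pdia4 (20.1 against 13.1 and 15.1). In limma 9 of the 18 had an unadjusted p under 0.05, beside 2944 of all 12528 genes tested. The share of this list that was called was near that of all genes, while its median was lower. A link to the Wfs1 values was not tested. In the Camk2a model 0 of the 18 were called by limma, with 1, Pdia4, at an unadjusted p under 0.05, their median log2 change was -0.09, and Atf6 was at 16.2 and 16.8 FPKM in controls and 15.3 in both cKO libraries (adjusted p = 0.883).

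**Figure D3:**
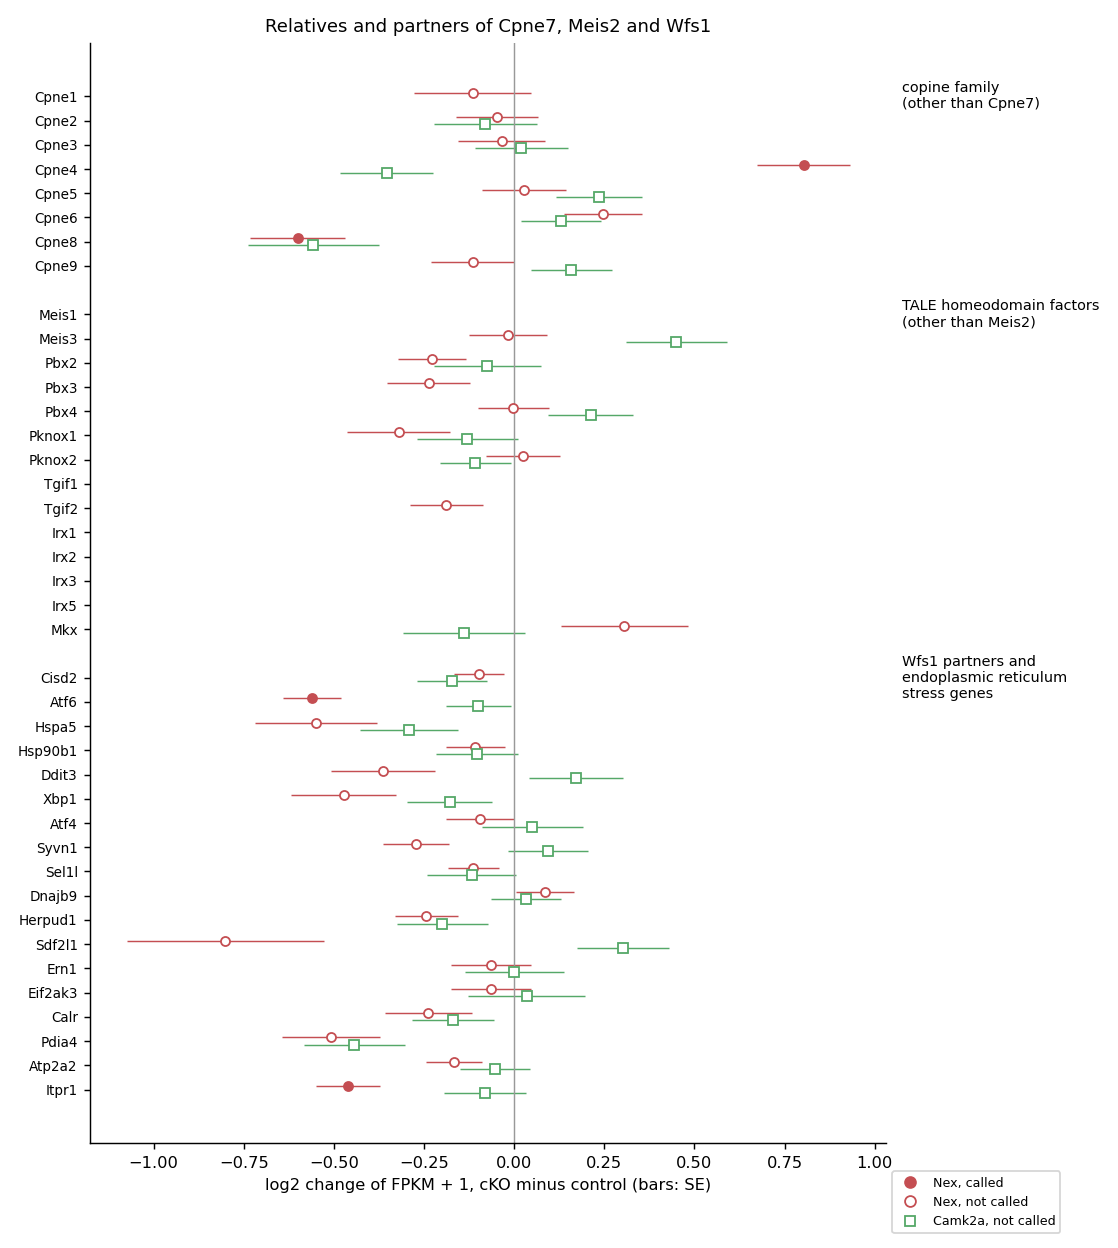
Log2 change of FPKM + 1 (cKO minus control, bars SE) of copines, TALE homeodomain factors and Wfs1 partners with stress genes, in the Nex model (circles, filled where limma called them) and the Camk2a model (squares). Cpne4 is called higher, Cpne8, Atf6 and Itpr1 are called lower, and the TALE factors have no filled symbol; the Nex values of Pbx2, Tgif2, Cisd2 and Pdia4 are those of rows joined with another gene.

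Genes with a pattern most like that of Wfs1 or Cpne7 were found by the root mean square difference, over the 10 libraries, of log2(FPKM + 1) minus the mean of the controls of the same table, among 9508 genes. The 10 libraries fall into 4 groups, so a large rise in Nex_cKO alone brings a gene near, and the ranking is a description. The Camk2a libraries entered the ranking too, so likeness in them in part follows from the choice. Wfs1 and Cpne7 differed from each other by 0.196, where the median gene differed by 0.847 from Wfs1 and by 0.756 from Cpne7. Both were chosen for their higher FPKM in Nex_cKO, so this small difference in part follows from the choice. Nearest to Wfs1 were Crb2 (0.146), an epithelial polarity protein, Ccdc3 (0.149) and P2rx6 (0.202), an ATP-gated channel subunit. Crb2 was at 1.005 to 1.13 FPKM in Nex_Ctrl and 4.70 to 4.77 in Nex_cKO. At 3 months it was at 1.57 and 1.22 FPKM in controls and 1.32 and 2.73 in cKO libraries, so that Camk2a_cKO replicate 2 was the high one, as for Wfs1. Ccdc3 had its highest 3-month value in the same library, at 3.01 FPKM against 1.62 to 1.91 in the others. Nearest to Cpne7 were P2rx6 (0.109), Gucy2g (0.12), a guanylate cyclase, and Adam33 (0.152), a metalloprotease. P2rx6 was at 0.255 to 0.681 FPKM in Nex_Ctrl and 1.81 to 2.97 in Nex_cKO, so it reached the minimum for the test only in the cKO libraries. Gucy2g was at 2.90 to 3.29 FPKM in Nex_Ctrl and 8.005 to 10.6 in Nex_cKO.

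**Figure D4:**
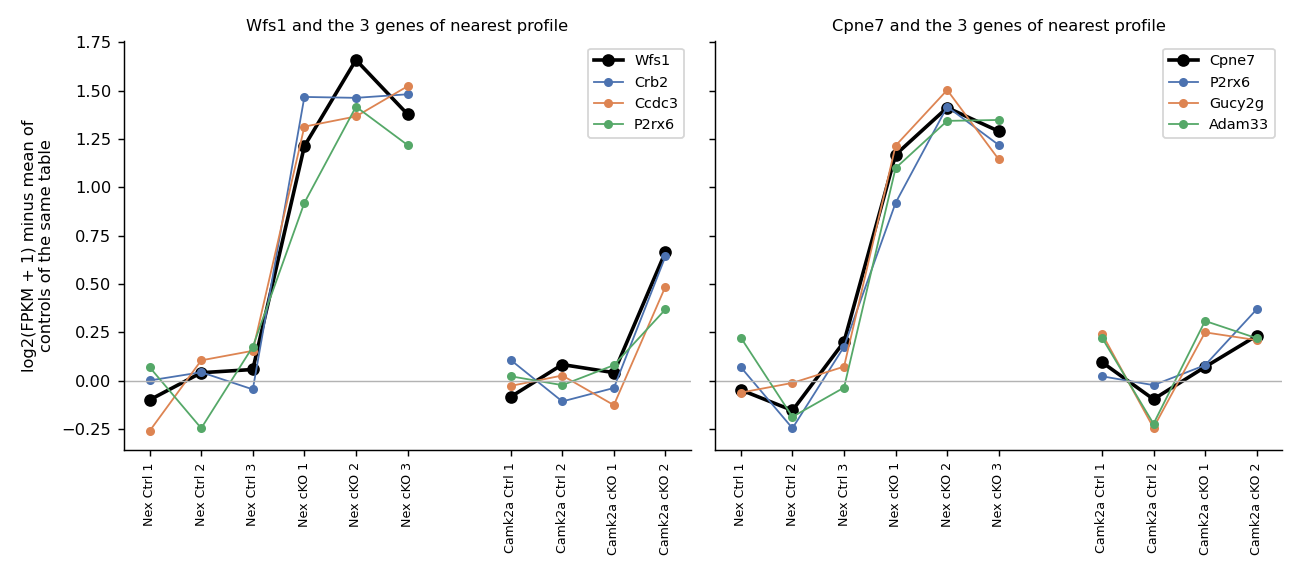
Log2(FPKM + 1) minus the mean of the controls of the same table, in each of the 10 libraries, for Wfs1 (left) and Cpne7 (right) with the 3 genes of smallest root mean square difference; lines only join the points of a gene within a table. All genes shown lie above 0.9 in the 3 Nex_cKO libraries, and in the Camk2a model Wfs1 and Crb2 are highest in Camk2a_cKO replicate 2.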

How the data were processed

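The authors deposited FPKM values in 2 tables, 1 per model, and per the submitters' processing notes cutadapt, STAR, Cufflinks 2.2.1 and DESeq2 were used, with the builds mm10 and GRCm38, in no stated role or order. The 2.5-month table had 29610 rows, of which 4463 had no gene name and were left out. Where several rows had 1 name, the one with the highest mean was used. In the 3-month table FPKM times the deposited gene length was a whole multiple of 1 step per library for 100% of values above 0 within a tolerance of 0.1, which gave reads per gene. Each table was fitted apart, because their gene models differ, and levels are not compared between them. Genes reaching an FPKM of 1 in 3 or more Nex or 2 or more Camk2a libraries were tested on log2(FPKM + 1) with limma 3.58.1 (trend) in R 4.3.3, two-sided, with Benjamini-Hochberg adjustment over all genes tested and a threshold of 0.05. Scripts were tested on simulated data. Promoter sequences are RefSeq's (GRCm38.p6), and gene positions are those of the 3-month table.

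The 6 genes and all lists were chosen with earlier results of these data known. The text names the 6 genes, the checks Nsd1, Neurod6 and Camk2a, of each list up to 4 called genes in each direction, or the 2 of highest level where none was called, the nearest genes on each side, and the 3 genes of nearest pattern; a few list genes are not reported here. Other list genes (Slc17a7, Tbr1, Dsp, C1ql2, Iyd, Prox1, Drd1, Isl1, Drd2, Gpr6, Ppp1r1b, Cpne6, Meis1, Cisd2, Hspa5, Pbx2, Pdia4, Xbp1, Sdf2l1, Slc1a2, Aldoc, Nov, Pou3f1, Man1a, Plk5, Stxbp6, Bok and Grik4) were chosen after their values were seen. Alternatives were a pseudocount of 0.1, no minimum, a minimum of 5, quantile and median ratio scaling, no trend, robust moderation, a replicate block, rows of 1 name summed, each library left out, and voom on recovered reads.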

Additional observations from a re-analysis of the deposited data

Results flagged for a closer look

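Fibcd1 had a log2 change of 0.69 under the Nex driver and -0.39 under the Camk2a driver, with every cKO library above every control at 2.5 months and below at 3 months. Meis2 had a log2 change of -0.79 under the Nex driver and 0.12 under the Camk2a driver, with the cKO libraries below all controls at 2.5 months and above both at 3 months. These 2 genes were marked because every cKO library moved one way in one model and the other way in the other. Neither 3-month change was called by limma (adjusted p 0.650 for Fibcd1 and 0.883 for Meis2). Over all genes tested, every cKO library lay above every control for 11.5% (Nex) and 16.2% (Camk2a), and below for 18.9% and 21.1%. The difference between the models was not tested, because the Nex contrast had a part in the choice of the genes. Driver, age and table cannot be told apart, and neither can sex, going by Ddx3y, a Y-linked gene. Ddx3y was at 0 FPKM in all Nex libraries but Nex_cKO replicate 3, and at 11 to 12.4 in the Camk2a libraries.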

How the results depend on the processing

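In the Nex model the log2 change of Wfs1 stayed between 1.30 and 1.52 and that of Cpne7 between 1.21 and 1.44 over 10 alternatives each, and in the Camk2a model neither was called in any (adjusted p 0.516 to 1.0 and 0.747 to 1.0). The pseudocount of 0.1 moved Fibcd1 to 0.89 and Meis2 to -0.86 in the Nex model. Zbtb20 in the Camk2a model turned to 0.00794 without Camk2a_Ctrl replicate 1 and to 0.0278 without Camk2a_cKO replicate 1, within a range of -0.133 to 0.0278 when 1 library was left out. Genes called in the Nex model with a minimum FPKM of 5 were 197 higher and 347 lower. Leaving out 1 library gave 443 to 635 higher and 160 to 685 lower genes, with fewer lower calls without each control (160, 205 and 161) or Nex_cKO replicate 1 (219); the cause was not tested. Of listed genes, 14 were called lower, and 8 with a minimum of 5, 9 after quantile normalization, and 5 to 16 without 1 library. In the Camk2a model 1 gene was called higher with a minimum of 5, 5 without a trend, 1 with robust moderation and 1 with voom, none of them among the 6 genes.

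Deviations of same-numbered libraries from their group means had correlations of 0.0167, -0.104 and -0.0956 among Nex libraries and 0.0496 among Camk2a libraries. Among Nex libraries not every one correlated best with its own number. With 2 libraries a group the Camk2a values can only be 0.0496 or -0.0496. Such small groups constrain these values, so they cannot show whether the numbers pair libraries. With a replicate block 497 genes were higher and 272 lower under the Nex driver, and 0 were called under the Camk2a driver. Among listed genes named in the text, the block ended the calls of Mpped1 (adjusted p = 0.109), Cdh24 (0.0826), Neurod2 (0.054), Fezf2 (0.0519) and Cpne8 (0.0518). The depth of the Nex libraries is unknown, 2 libraries a group limit the Camk2a model, and Spink8, with 1 to 9 reads, is below what these libraries can compare.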
